A study of Mus musculus with 16 samples.

Results

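Entry of a cardiomyocyte into the cell cycle and its exit after birth are set by a small group of genes, and 10 of them are described here: the D-type cyclins *Ccnd1*, *Ccnd2* and *Ccnd3*, their kinases *Cdk4* and *Cdk6*, the CDK inhibitors *Cdkn1a*, *Cdkn1b* and *Cdkn1c*, the retinoblastoma gene *Rb1* and the transcription factor gene *Meis1*. They were listed by name, though with earlier results of these data known. All 10 were found among the 51912 genes of the count table and were among the 20159 genes tested. The libraries came from full heart ventricles of neonatal mice operated on postnatal day 1, with a sham procedure (SH) or an induced myocardial infarction (MI), and harvested 7 days later. Wild type (WT) mice were C57BL/6J animals from a supplier, and *Lrrc10* knockout (KO) mice lacked the gene in the whole body on a C57BL/6 background. No treatment or allele other than the deletion and the surgery was named. WT and KO mice came from different sources, so the loss of *Lrrc10* and other differences between their lines cannot be told apart. There were 4 libraries in each of 4 groups, WT SH and WT MI for the wild type and KO SH and KO MI for the knockout, and the KO MI libraries carried the numbers 1, 2, 3 and 7. The labels did not tie the libraries to litters, and they named 16 samples, so p-values measure the spread between these samples. The table holds whole ventricles, so fewer cells of a type and less RNA per cell cannot be told apart.

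D-type cyclins bind CDK4 or CDK6 and start the phosphorylation of the retinoblastoma protein. The phosphorylated protein releases E2F factors, which switch on genes of DNA replication. The proteins p21, p27 and p57, from *Cdkn1a*, *Cdkn1b* and *Cdkn1c*, hold cyclin-dependent kinases in check. MEIS1 is a homeodomain factor known to promote the postnatal arrest of mouse cardiomyocytes, and *Cdkn1a* is among the genes it is known to activate. Cardiomyocytes of the mouse leave the cell cycle in the first days after birth, and a heart injured at birth can still regenerate.

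Library totals ranged from 33783874 to 57470159 counts (median 45092798). *Lrrc10* had 1075 to 1850 counts in the WT libraries and 0 in all 8 KO libraries, which at these depths allows up to 0.081 CPM in a KO library. *Xist*, transcribed in females, exceeded 100 CPM in 0 of 4 WT SH libraries and in 2 of 4 libraries of each other group, although the labels call the groups sex-balanced. KO MI replicate 7 stood apart from the other 3 KO MI libraries. It was outside their range for 8 of the 10 genes, lowest of all 16 libraries for 2 and highest for 2. Skeletal muscle markers summed to 116 CPM in it and to 71.8 CPM in KO MI replicate 2, against 2.58 CPM in replicate 1, 7.13 CPM in replicate 3 and at most 12.9 CPM in any WT library. The KO MI comparisons of the 10 genes and of the gene lists are therefore given with and without replicate 7. All 16 libraries were fitted together, so replicate 7 also entered the spread used to test the other comparisons. The correlations are given only with replicate 7. Replicate 7 was picked out partly by the values of these 10 genes, so results without it are not an independent test. Any 1 of 4 libraries often lies outside the range of the other 3 by chance.

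All 10 genes were well covered, with 171 counts (*Cdkn1a*, KO MI replicate 7) to 12688 counts (*Ccnd2*, KO MI replicate 2) in a library. CPM values (read counts scaled to library size) of the TMM-scaled library were divided by the kb of merged exons to set different genes side by side. On this scale *Ccnd2* had the highest level, with a mean of 22.3 CPM per kb over 16 libraries (16.7 to 26.5). *Ccnd1* followed at 11 (8.08 to 12.5), and the ranges of these 2 genes did not overlap. The levels per kb then ran downwards through *Cdkn1c* (mean 8.47), *Cdkn1b* (7.17), *Cdk4* (5.97), *Cdk6* (5.14) and *Meis1* (3.64), and from *Ccnd1* to *Meis1* each gene overlapped its neighbour. *Ccnd3* (2.28 CPM per kb) and *Rb1* (2.19) lay below every *Meis1* value and overlapped each other. *Cdkn1a* was lowest at 1.06 CPM per kb (0.757 to 1.59), below every *Rb1* value. The most abundant D-type cyclin was thus *Ccnd2*, and the CDK inhibitor with the lowest level was *Cdkn1a*. Within 1 gene, the spread over the 16 libraries was widest for *Cdkn1a* (CV 19.4%, highest over lowest 2.10) and narrowest for *Ccnd3* and *Cdk4* (CV 5.87% and 5.91%).

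**Figure D1:**
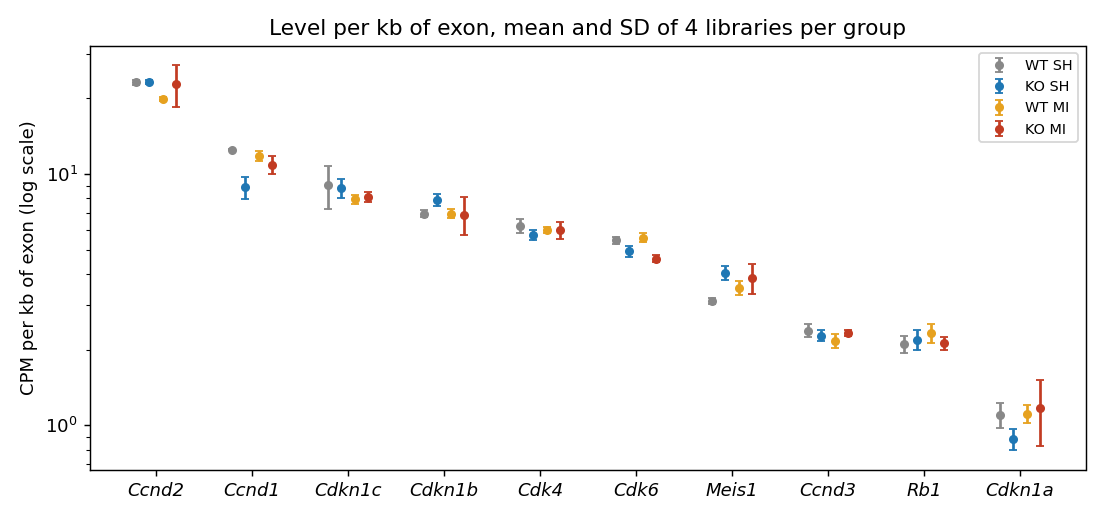
Level of each gene in CPM per kb of merged exons on a log scale, by group; points are means and bars the SD of 4 libraries, and genes are ordered by their mean over 16 libraries. *Ccnd2* (22.3 CPM per kb) lies above all other genes and *Cdkn1a* (1.06) below them.

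The first comparison set KO hearts against WT hearts without infarction (KO SH against WT SH). *Ccnd1* fell and *Meis1* rose in KO SH, and *Cdk6* fell by a smaller amount. These were 3 of the 10 genes with an adjusted p under 0.1 (edgeR's quasi-likelihood test, Benjamini-Hochberg over all genes tested), where 12.3% of all genes tested passed. None of the 10 was a DEG, which also needs a log2 fold change beyond 0.5 in either direction; 5.01% of all genes tested were. The libraries of both groups did not overlap for 5 of the 10 genes (*Ccnd1*, *Cdk6*, *Cdkn1a*, *Cdkn1b* and *Meis1*), against 18.5% of all genes tested.

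*Ccnd1* (ENSMUSG00000070348, chromosome 7, 144483668 to 144493662, minus strand of GRCm39) encodes cyclin D1. It stood at 59.8, 59.5, 59.8 and 59.5 CPM in WT SH replicates 1 to 4 and at 38.6, 44.4, 47.0 and 39.1 CPM in KO SH replicates 1 to 4. The 4 WT SH libraries were nearly equal (CV 0.322%), and every KO SH library was below them. The log2 fold change was −0.50 (SE 0.07, 95% interval −0.64 to −0.35, 0.709 of the WT SH level, adjusted p = 0.000271 by edgeR). Unrounded it was −0.4967, just short of the minimum for a DEG, while DESeq2 placed *Ccnd1* past it (adjusted p = 3.8e-09). The exact permutation test (two-sided) gave p = 0.0286, the smallest that 4 libraries against 4 allow. *Ccnd2* (ENSMUSG00000000184, chromosome 6, 127102125 to 127129156, minus strand), the cyclin D2 gene, had 213 to 224 CPM in WT SH and 214 to 223 CPM in KO SH, a log2 fold change of 0.00 (SE 0.09). *Ccnd3* (ENSMUSG00000034165, chromosome 17, 47815767 to 47910624, plus strand), the cyclin D3 gene, had 20.9 to 23.9 CPM and 19.9 to 22.1 CPM (−0.07, SE 0.06, adjusted p = 0.55 by edgeR). Of the 3 D-type cyclins, *Ccnd1* alone passed the test in this comparison, and the difference between the cyclins was not tested.

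Among the kinases, *Cdk6* (ENSMUSG00000040274, chromosome 5, 3391485 to 3581008, plus strand) had 78.4, 80.9, 79.7 and 75.3 CPM in WT SH and 74.5, 72.7, 70.9 and 66.0 CPM in KO SH. The highest KO SH library lay just below the lowest WT SH library. The log2 fold change was −0.15 (SE 0.05, adjusted p = 0.0743 by edgeR), and the adjusted p was over 0.1 in 6 of the 8 fits that left out 1 library (up to 0.218). *Cdk4* (ENSMUSG00000006728, chromosome 10, 126895180 to 126903789, plus strand) had 20.4 to 23.3 CPM in WT SH and 18.5 to 20.7 CPM in KO SH, with a log2 fold change of −0.12 (SE 0.06, adjusted p = 0.282 by edgeR).

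The inhibitors *Cdkn1a* and *Cdkn1b* did not overlap between the groups but missed the adjusted threshold in the fit of all 16 libraries. Both passed by edgeR with only WT SH and KO SH in the fit. They also passed with a term for the replicate number, which drops KO MI replicate 7, where 17% of all genes tested passed. *Cdkn1a* (ENSMUSG00000023067, chromosome 17, 29309936 to 29319701, plus strand), the p21 gene, had 6.67, 7.73, 5.92 and 6.34 CPM in WT SH and 5.09, 5.67, 5.80 and 4.69 CPM in KO SH (log2 fold change −0.33, SE 0.16, adjusted p = 0.23 by edgeR). *Cdkn1b* (ENSMUSG00000003031, chromosome 6, 134897364 to 134902476, plus strand), the p27 gene, had 31.2, 30.8, 31.8 and 32.9 CPM in WT SH and 36.4, 34, 38.4 and 34.8 CPM in KO SH (0.18, SE 0.09, adjusted p = 0.222 by edgeR). The 2 inhibitors thus lay on opposite sides of WT SH. *Cdkn1c* (ENSMUSG00000037664, chromosome 7, 143012069 to 143014806, minus strand), the imprinted p57 gene, ranged from 16 to 24.9 CPM in WT SH and from 16.8 to 20.3 CPM in KO SH (−0.04, SE 0.10). *Rb1* (ENSMUSG00000022105, chromosome 14, 73421113 to 73563507, minus strand) ranged from 23 to 27.8 CPM and from 24.1 to 28.4 CPM (0.05, SE 0.08).

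*Meis1* (ENSMUSG00000020160, chromosome 11, 18829817 to 18969749, minus strand) had 35.3, 36.2, 35.6 and 34.1 CPM in WT SH and 49.3, 46.0, 42.5 and 44.6 CPM in KO SH. Every KO SH library exceeded every WT SH library. *Meis1* rose by 0.37 on the log2 scale (SE 0.08, 95% interval 0.21 to 0.53, 1.29-fold, adjusted p = 0.00802 by edgeR). The related gene *Meis2*, picked out after its value was seen, was the 1 of 7 tested partners of MEIS1 that passed, with 41.0 to 42.8 CPM in WT SH and 49.0 to 52.7 CPM in KO SH (log2 fold change 0.26, SE 0.05, adjusted p = 0.00545 by edgeR). *Hoxb13*, the gene of a cofactor of MEIS1 in cardiomyocytes, had 0 counts in all 16 libraries.

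The WT SH group held no library with high *Xist*, so the sex of the animals is in part confounded with this comparison. The 2 KO SH libraries low in *Xist* (replicates 3 and 4) still had 47.0 and 39.1 CPM of *Ccnd1* and 42.5 and 44.6 CPM of *Meis1*. With the *Xist* level as a covariate, 5 of the 10 genes passed at 0.1, beside 12.1% of all genes tested in that fit. *Ccnd1* was then at −0.52 (adjusted p = 0.00108 by edgeR), *Meis1* at 0.41 (0.0136), *Cdk6* at −0.17 (0.0838), *Cdkn1a* at −0.48 (0.0909) and *Cdkn1b* at 0.28 (0.0539). Other features of the libraries moved with KO SH. Mitochondrial genes held 45.5% to 46.7% of the counts in WT SH and 46.8% to 47.8% in KO SH. The summed level of 98 ribosomal protein genes was 4990 to 6110 CPM in WT SH and 4620 to 4760 CPM in KO SH. The sum of 6 cardiomyocyte markers was 25100 to 35800 CPM in WT SH and 24100 to 25000 CPM in KO SH, and 3 of the 6 fell with an adjusted p under 0.1 (*Myh6*, *Tnni3* and *Actc1*). *Myh6* missed in 1, *Tnni3* in 2 and *Actc1* in 7 of the 8 fits that left out 1 library. The sum of 6 fibroblast markers was 1900 to 2250 CPM in WT SH and 1760 to 1930 CPM in KO SH, and *Postn*, the periostin gene, was lower at −0.39 (adjusted p = 0.00161 by edgeR). Macrophage markers summed to 23.5 to 27.9 CPM and 22 to 24.8 CPM, where 1 of 5 fell, the complement gene *C1qa* (a DEG at −0.78, adjusted p = 0.0419 by edgeR). Erythroid markers summed to 339 to 470 CPM in WT SH and to 264 to 316 CPM in KO SH, with 0 of 5 passing. The sum of 5 endothelial markers was 807 to 835 CPM and 741 to 780 CPM, with 0 of 5 passing, and that of 5 smooth muscle and pericyte markers 756 to 863 CPM and 658 to 715 CPM, with 1 higher (*Myh11*) and 1 lower (*Acta2*). No marker of these 6 lists was at 0 in either group, and their part in the results was not tested.

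**Figure D2:**
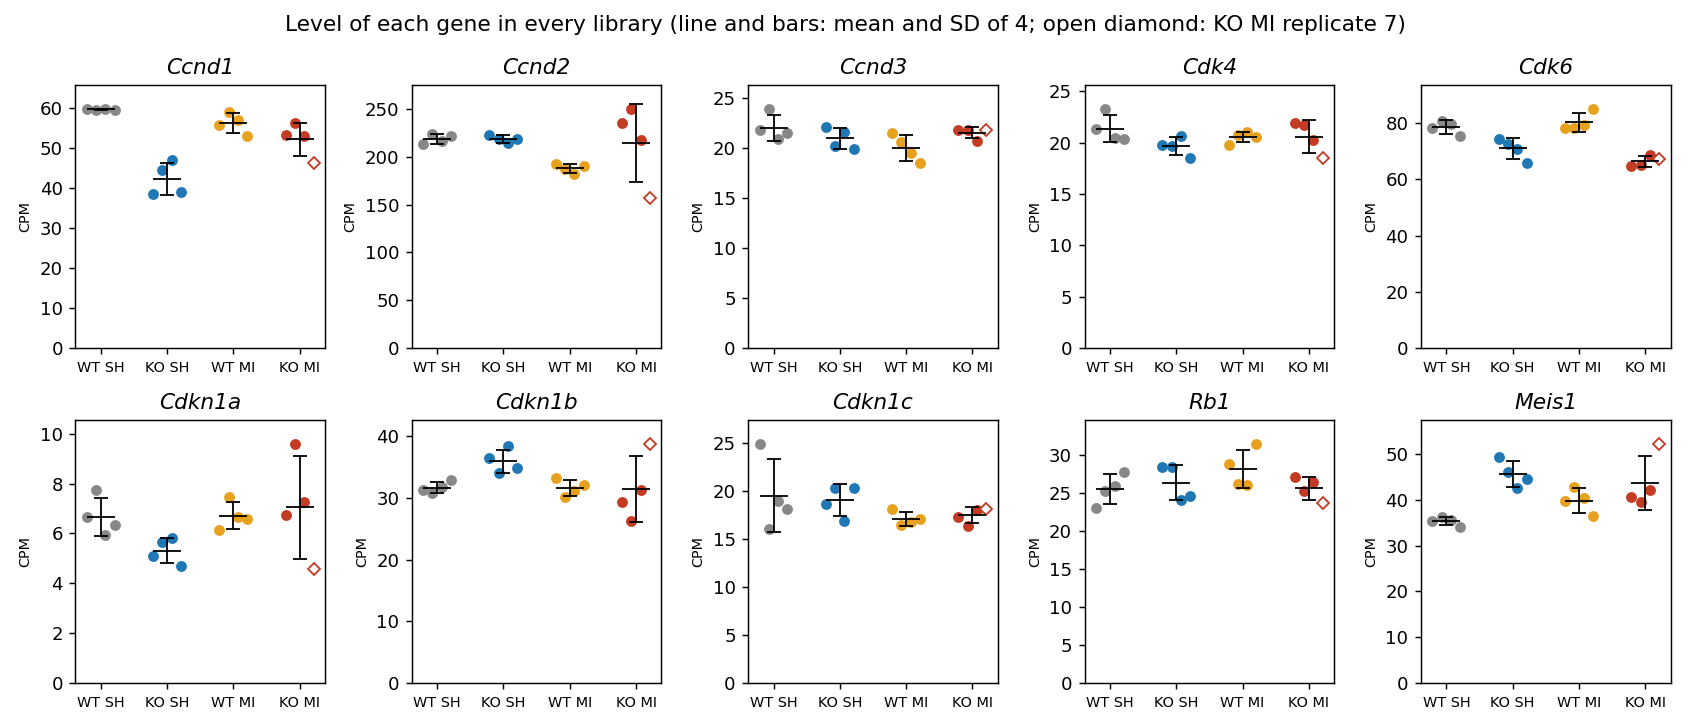
CPM of each gene in every library by group, with the mean and SD of 4 libraries; the open diamond is KO MI replicate 7. The KO SH points lie below all WT SH points for *Ccnd1* and above them for *Meis1*, and the diamond is the lowest of all 16 libraries for *Ccnd2* (157 CPM) and the highest for *Meis1* (52.3 CPM).

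The sequences before the transcription starts are shown for *Cdk6* and *Meis1*, which passed the test in KO SH, and for *Cdkn1a*, which passed it in KO MI against KO SH. RefSeq windows of GRCm38.p6 were matched for 6 of the 10 genes (*Ccnd3*, *Cdk4*, *Cdk6*, *Cdkn1a*, *Cdkn1b* and *Meis1*). The 250 bases before each start are printed 5′ to 3′ on the gene's strand, and capitals mark the motifs found.
Cdk6: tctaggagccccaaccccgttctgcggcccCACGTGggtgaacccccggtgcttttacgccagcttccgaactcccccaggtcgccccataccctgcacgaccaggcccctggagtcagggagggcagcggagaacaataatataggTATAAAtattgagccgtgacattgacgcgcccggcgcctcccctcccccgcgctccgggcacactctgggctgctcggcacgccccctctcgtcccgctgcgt
Meis1: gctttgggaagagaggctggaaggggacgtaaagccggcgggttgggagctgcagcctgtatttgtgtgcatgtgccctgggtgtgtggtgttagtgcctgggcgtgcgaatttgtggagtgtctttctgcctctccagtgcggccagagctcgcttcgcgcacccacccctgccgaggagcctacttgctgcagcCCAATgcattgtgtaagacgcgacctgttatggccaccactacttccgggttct
Cdkn1a: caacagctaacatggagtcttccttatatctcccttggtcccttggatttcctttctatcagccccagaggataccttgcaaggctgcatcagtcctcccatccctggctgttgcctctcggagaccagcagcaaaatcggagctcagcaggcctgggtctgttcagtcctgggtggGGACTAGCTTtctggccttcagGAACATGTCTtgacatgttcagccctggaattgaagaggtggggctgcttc
The *Cdk6* window is chr5:3343643-3343892 (plus strand), the *Meis1* window chr11:19018970-19019219 (minus strand) and the *Cdkn1a* window chr17:29090729-29090978 (plus strand), the first of 2 starts of that gene. The capitals in *Cdk6* are CACGTG and TATAAA, in *Meis1* CCAAT, and in *Cdkn1a* the 2 decamers of a p53 response element by its consensus, with a spacer of up to 13 bases. Over all 32851 windows of the same length, searched on both strands, TATAAA was in 12.4%, CACGTG in 6.02%, CCAAT in 33.8% and the p53 element in 0.0639%. GGGCGG, in 32.7% of windows, was in none of the 3 shown but in those of *Cdk4*, *Cdkn1b* and *Ccnd3* and in the other *Cdkn1a* window. TGACAG, the core bound by MEIS factors (15.9% of windows), and the E2F octamers TTTCCCGC, TTTCGCGC, TTTGGCGC and TTTGCCGC (1.86%) were not found in the 8 windows of the 6 genes. No motif searched contains another.

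After MI, the injured hearts of KO mice were compared with those of WT mice (KO MI against WT MI). *Cdk6* fell, and it was the 1 of the 10 genes with an adjusted p under 0.1, where 3.07% of all genes tested passed. None was a DEG (1.73% of all genes tested). *Cdk6* was also the 1 gene of the 10 whose libraries did not overlap, against 6.47% of all genes tested. It had 78.4, 78.2, 79.3 and 85.1 CPM in WT MI replicates 1 to 4 and 64.7, 65.2 and 68.8 CPM in KO MI replicates 1 to 3, with 67.2 CPM in replicate 7. The fitted log2 fold change was −0.27 (SE 0.05, 95% interval −0.37 to −0.17, 0.828 of the WT MI level, adjusted p = 0.00519 by edgeR). It was −0.28 without KO MI replicate 7, and it kept an adjusted p under 0.1 in each fit that left out 1 library (−0.29 to −0.24). *Cdk6* was therefore lower in KO than in WT after both surgeries, and the difference between the 2 effects was −0.13 (SE 0.07, adjusted p = 0.43 by edgeR).

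The other genes overlapped between KO MI and WT MI. *Ccnd2* had 192, 187, 182 and 190 CPM in WT MI and 235, 250, 217 and 157 CPM in KO MI. Replicates 1, 2 and 3 were above every WT MI library and replicate 7 was below all of them. The log2 fold change was 0.20 (SE 0.09, adjusted p = 0.407 by edgeR) with replicate 7 and 0.32 (SE 0.05, adjusted p = 0.00104 by edgeR) without it. *Ccnd1* had 53.1 to 59.0 CPM in WT MI and 46.3 to 56.3 CPM in KO MI (−0.11, SE 0.07, and −0.05 without replicate 7). *Meis1* had 39.7, 42.8, 40.5 and 36.4 CPM in WT MI and 40.7, 39.5, 42.1 and 52.3 CPM in KO MI, where only replicate 7 was above the WT MI range. Its log2 fold change was 0.13 (SE 0.08, adjusted p = 0.551 by edgeR) and 0.03 without replicate 7. *Meis2*, also picked out after its value was seen, was higher again, by 0.23 (SE 0.05, adjusted p = 0.0276 by edgeR). It was 0.20 (adjusted p = 0.0364 by edgeR) without replicate 7, its highest library at 58 CPM, and the adjusted p was 0.109 without WT MI replicate 4. *Cdkn1a* (6.16 to 7.45 against 4.58 to 9.61 CPM), *Cdkn1b* (30.2 to 33.2 against 26.2 to 38.8 CPM), *Cdkn1c* (16.4 to 18.1 against 16.3 to 18.1 CPM), *Ccnd3* (18.5 to 21.5 against 20.7 to 21.8 CPM), *Cdk4* (19.8 to 21 against 18.5 to 21.9 CPM) and *Rb1* (26.1 to 31.5 against 23.7 to 27.1 CPM) had log2 fold changes between −0.13 and 0.10, with adjusted p-values by edgeR from 0.541 to 0.993. Without replicate 7 these 6 genes ran from −0.13 (*Cdkn1b*, adjusted p = 0.295 by edgeR) to 0.23 (*Cdkn1a*, adjusted p = 0.359 by edgeR), and none passed. *Ccnd2* and *Cdk6* were then the 2 genes of the 10 that passed, where 6.16% of all genes tested did.

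**Figure D3:**
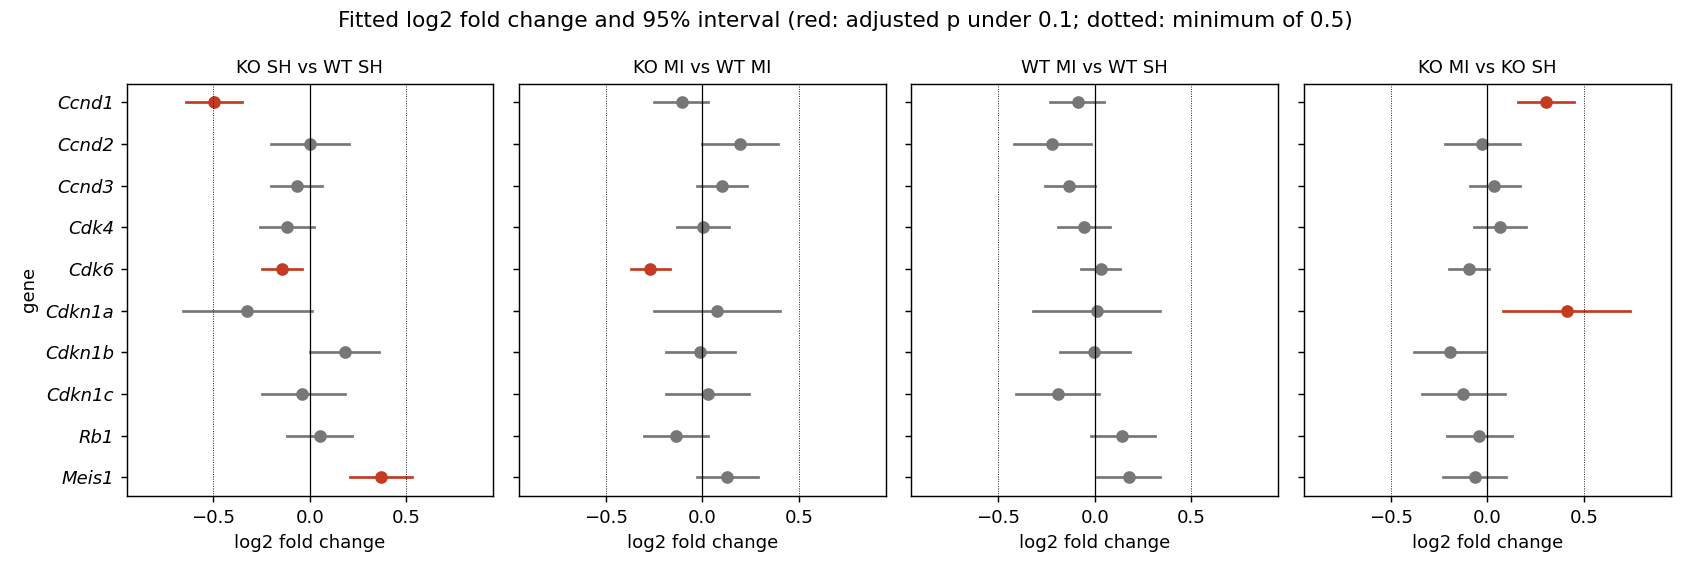
Fitted log2 fold change (point) and its 95% interval (line) for each gene in 4 comparisons; red marks an adjusted p under 0.1 and dotted lines the minimum of 0.5 for a DEG. *Ccnd1* (−0.50) and *Meis1* (0.37) stand out in KO SH against WT SH and *Cdk6* (−0.27) in KO MI against WT MI.

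The response to MI in WT mice was small for these genes. With all 16 libraries in the fit, none of the 10 passed at an adjusted p of 0.1 in WT MI against WT SH by edgeR or DESeq2. Of all genes tested 5.31% passed by edgeR. None of the 10 was a DEG (2.78%). *Ccnd2* and *Meis1* did pass by edgeR with only WT SH and WT MI in the fit. Both also passed with a term for the replicate number, which drops KO MI replicate 7, where 8.21% of all genes tested passed. An unadjusted p under 0.05 was found for 3 of the 10, where 3325 of the 20159 genes tested had one. The libraries of 3 genes did not overlap, against 12.1% of all genes tested. *Ccnd2* had 213 to 224 CPM in WT SH and 192, 187, 182 and 190 CPM in WT MI, and did not pass the adjusted threshold (log2 fold change −0.22, SE 0.09, adjusted p = 0.24 by edgeR). *Meis1* had 34.1 to 36.2 CPM in WT SH and 36.4 to 42.8 CPM in WT MI, the other direction (0.18, SE 0.08, adjusted p = 0.262 by edgeR). *Ccnd1* was at 55.8, 59.0, 56.9 and 53.1 CPM in WT MI, each just below the WT SH libraries (−0.09, SE 0.07, adjusted p = 0.563 by edgeR). The WT SH libraries were all low in *Xist*, so the sex of the animals is in part confounded with this comparison too. With the *Xist* level as a covariate 0 of the 10 passed, beside 3.12% of all genes tested in that fit.

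In KO mice, KO MI against KO SH, *Ccnd1* rose and *Cdkn1a* rose. These 2 of 10 genes compare with 17.5% of all genes tested at an adjusted p under 0.1. None of the 10 was a DEG (7.42% of all genes tested), and none had libraries that did not overlap, against 14.9%. *Ccnd1* went from 38.6, 44.4, 47.0 and 39.1 CPM in KO SH to 53.2, 56.3, 52.9 and 46.3 CPM in KO MI. KO MI replicate 7 was the only KO MI library inside the KO SH range. On the log2 scale *Ccnd1* rose by 0.30 (SE 0.07, adjusted p = 0.00871 by edgeR), and 0.36 (adjusted p = 0.000891 by edgeR) without replicate 7, while the exact permutation test gave p = 0.0571. *Cdkn1a* had 5.09, 5.67, 5.80 and 4.69 CPM in KO SH and 6.73, 9.61, 7.27 and 4.58 CPM in KO MI, so replicate 7 was below all KO SH libraries and the other 3 above them. The log2 fold change was 0.41 (SE 0.16, adjusted p = 0.0994 by edgeR). It rose to 0.56 (SE 0.12, adjusted p = 0.00392 by edgeR) without replicate 7, which made *Cdkn1a* a DEG, and the adjusted p was over 0.1 in the 7 other fits that left out 1 library (up to 0.396).

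Without KO MI replicate 7, *Cdkn1b* and *Meis1* also passed in this comparison, which made 4 of the 10 genes, while the share of all genes tested that passed went from 17.5% to 28%. *Cdkn1b* had 36.4, 34, 38.4 and 34.8 CPM in the KO SH libraries, and the KO MI libraries had 29.4, 26.2 and 31.2 CPM (replicates 1 to 3) and 38.8 CPM (replicate 7). Its log2 fold change was −0.19 (SE 0.09, adjusted p = 0.155 by edgeR) with replicate 7 and −0.31 (SE 0.06, adjusted p = 0.00212 by edgeR) without it. *Meis1* was at −0.07 (SE 0.08) with it and at −0.16 (SE 0.06, adjusted p = 0.0567 by edgeR) without it. *Ccnd2* changed sign, from −0.03 to 0.10, and did not pass either way. The remaining 5 genes lay between −0.14 and 0.11 without replicate 7, and none passed. This comparison and the one of KO SH with WT SH share the 4 KO SH libraries, so their values are not independent.

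Whether the KO effect differed after MI and after sham surgery was tested as an interaction, the KO effect after MI minus that after sham. None of the 10 genes passed with all 16 libraries, and of all genes tested 0.0248% did, with or without the minimum fold change. *Ccnd1* was closest, with a log2 interaction of 0.39 (SE 0.10, adjusted p = 0.15 by edgeR), and passed in DESeq2 (adjusted p = 0.0217). No WT SH library was high in *Xist*, so sex is in part confounded with the interaction as well. With the *Xist* level as a covariate 0 of the 10 passed (*Ccnd1* adjusted p = 0.125 by edgeR), beside 0.0943% of all genes tested. Without KO MI replicate 7, 5 of the 10 genes passed, beside 9.08% of all genes tested (1816 genes). Because this library was picked out partly by the values of these genes, the gain may be in part built in. *Ccnd1* was then at 0.44 (SE 0.08, adjusted p = 0.0104 by edgeR), *Ccnd2* at 0.32 (SE 0.06, adjusted p = 0.015), *Cdkn1a* at 0.55 (SE 0.17, adjusted p = 0.069), *Cdkn1b* at −0.31 (SE 0.08, adjusted p = 0.0472) and *Meis1* at −0.34 (SE 0.08, adjusted p = 0.0283). The 5 genes with and without this library kept their direction. Without KO MI replicates 2 and 7, 3 of the 10 passed, beside 4.11% of all genes tested. KO MI replicate 7 had 33783874 counts, the lowest total of the 16, and 41.4% of them were mitochondrial, where the KO MI libraries ran from 38.1% to 45.0%. It was also low in *Xist* (7.97 CPM), as were all WT SH libraries, and no fit without it used the *Xist* covariate. The part of its depth, its sex or its skeletal muscle markers in these values was not tested.

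**Figure D4:**
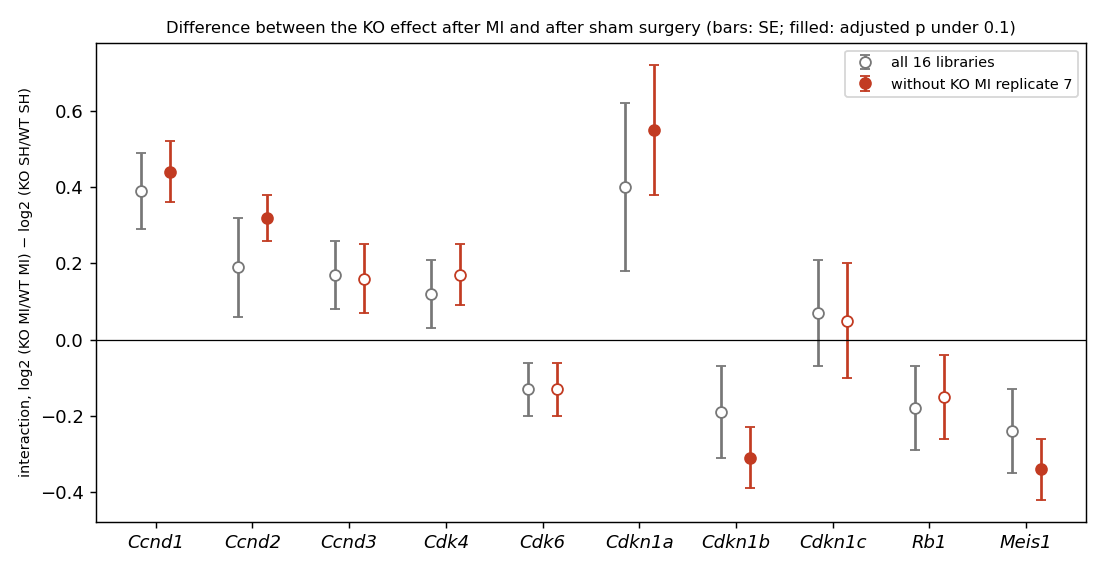
Log2 interaction of each gene (KO effect after MI minus KO effect after sham) with all 16 libraries (grey) and without KO MI replicate 7 (red); bars are SE and filled points have an adjusted p under 0.1. With all libraries no point is filled, and without replicate 7 the points of 5 genes are filled, from −0.34 (*Meis1*) to 0.55 (*Cdkn1a*).

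Genes downstream of the cyclin D kinases were described by lists. The 12 E2F target genes of S phase entry, which load and drive the replication machinery, leaned lower in KO SH. In KO SH against WT SH, 4 of the 12 passed at an adjusted p of 0.1, all lower, where 12.3% of all genes tested passed, and the median log2 fold change was −0.23, beside 0.01 over all genes tested. These 4 were *Mcm3*, *Mcm5*, *Mcm6* and *Pcna*, parts of the replicative helicase and the polymerase clamp, named after their values were seen. The count rested on single libraries, since it was 1 without WT SH replicate 2, KO SH replicate 3 or KO SH replicate 4, and 2 without WT SH replicate 1 or KO SH replicate 2. *Mcm3* passed in all 8 fits that left out 1 library. *Mcm3* had 26.5, 26.6, 21.1 and 21.5 CPM in WT SH and 19.3, 18.2, 16.4 and 17.4 CPM in KO SH (log2 fold change −0.43, SE 0.09, adjusted p = 0.0103 by edgeR). Of 8 mitosis genes, 1 passed in KO SH, the proliferation marker *Mki67*, which went from 282 to 353 CPM in WT SH to 228 to 259 CPM in KO SH (−0.40, SE 0.09, adjusted p = 0.0083 by edgeR). The E2F activator gene *E2f2* was a DEG, with 2.98, 3.37, 2.69 and 3.99 CPM in WT SH and 2.39, 1.92, 1.86 and 1.68 CPM in KO SH (−0.73, SE 0.18, adjusted p = 0.0218 by edgeR), and 3 of 12 pocket protein, E2F and DP genes passed, all lower (*E2f1*, *E2f2* and *Tfdp1*). *E2f2* and *Mki67* passed in all 8 fits that left out 1 library, *E2f1* missed in 5 of them and *Tfdp1* in all 8.

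More genes of these lists passed in KO MI against KO SH, where 17.5% of all genes tested passed and 7.42% were DEGs. In KO SH against WT SH these shares were 12.3% and 5.01%. Of the 12 E2F targets, 10 had an adjusted p under 0.1, all higher (median 0.34, beside −0.01 over all genes tested), and 3 were DEGs, *Cdc6* (0.60), *Mcm3* (0.54) and *Tyms* (0.54). All 8 mitosis genes were DEGs (median 0.64), led by the kinetochore motor gene *Cenpe* (0.80), the Aurora B gene *Aurkb* (0.75) and *Mki67* (0.69). Of the 7 E, A and B cyclins and kinases, 5 passed and 4 were DEGs, with the largest changes in *Cdk1* (0.78), *Ccnb1* (0.69) and *Ccnb2* (0.61). *Mki67* had 228 to 259 CPM in KO SH and 345 to 459 CPM in KO MI. *Cdk1* had 7.50 to 8.45 CPM in KO SH and 11.4 to 19.3 CPM in KO MI, so neither gene overlapped between the groups. Among the factors, *E2f2* (0.81), *E2f7* (0.57), *E2f8* (0.53), *Mybl2* (0.67) and *Foxm1* (0.63) were DEGs, and of the 3 INK4 inhibitors tested *Cdkn2d* was (0.61). Leaving out KO MI replicates moved these counts. Without replicate 7, 11 of 12 E2F targets passed (median 0.42) with 5 DEGs, all 8 mitosis genes were DEGs (median 0.71), and all 5 of the cyclins and kinases that passed were DEGs. Of all genes tested 28% then passed and 10.9% were DEGs. Without KO MI replicate 2, 6 of 12 E2F targets passed with 1 DEG (median 0.33), and all 8 mitosis genes passed but 4 were DEGs (median 0.51). Without both, 9 of 12 E2F targets passed with 0 DEGs, and 7 of 8 mitosis genes were DEGs (median 0.57). Of all genes tested 16.9% then passed and 6.59% were DEGs. *Mcm3*, *Tyms*, *E2f7*, *E2f8*, *Mybl2*, *Foxm1* and *Cdkn2d* were not DEGs without replicate 2, and *E2f8* was also not one without KO SH replicate 3 or 4. Leaving out KO SH replicate 3 left 6 of 12 E2F targets with an adjusted p under 0.1.

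In WT MI against WT SH, 5.31% of all genes tested passed and 2.78% were DEGs. There 1 of the 12 E2F targets passed (*Rrm2*, median of the list 0.07) and 3 of the 8 mitosis genes did (*Top2a*, *Bub1* and *Cenpe*, median of the list 0.37), all higher. *Ccnb1*, the cyclin B1 gene, was a DEG (0.64, SE 0.14, adjusted p = 0.0194 by edgeR). It had 11 to 14.1 CPM in WT SH and 15.5 to 20.2 CPM in WT MI. The list counts did not hold in every fit. With the *Xist* level as a covariate 0 of 12 and 0 of 8 passed (medians −0.02 and 0.24). The mitosis count was 0 without WT SH replicate 1 or 2 or WT MI replicate 1, 2 or 4, and 1 without WT SH replicate 3, and the E2F target count was 0 without WT SH replicate 1 or 4 or WT MI replicate 1 or 4. Between KO MI and WT MI none of the 12 E2F targets (median 0.11), 8 mitosis genes (median 0.12) and 7 cyclins and kinases passed by edgeR, and without replicate 7 the counts were 1, 0 and 0. Of all genes tested 3.07% passed with all libraries and 6.16% without replicate 7. With all libraries an unadjusted p under 0.05 was found for 3 of the 12 E2F targets, where 2503 of the 20159 genes tested had one. It was found for 0 of the 8 mitosis genes and 0 of the 7 cyclins and kinases. None of the first 2 lists passed in DESeq2. In the interaction none of the 12 E2F targets and 8 mitosis genes passed by edgeR with all libraries, where 0.0248% of all genes tested did. An unadjusted p under 0.05 was found for 6 and 4, against 2745 of the 20159 genes tested, and 2 and 1 passed in DESeq2. Values above 0 were found for 11 of 12 and 8 of 8 (medians 0.33 and 0.32). Without KO MI replicate 7, 4 of 12 and 3 of 8 passed, beside 9.08% of all genes tested.

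Markers of other cell types and other library features moved with MI beside the proliferation genes. In KO MI against KO SH 17.5% of all genes tested passed and 7.42% were DEGs. The macrophage marker sum was 23.5 to 27.9 CPM in WT SH, 22 to 24.8 CPM in KO SH, 31.7 to 54.9 CPM in WT MI and 29.8 to 65.0 CPM in KO MI, and 4 of 5 were DEGs in KO MI against KO SH. The fibroblast marker sum was 1900 to 2250 CPM in WT SH and 2280 to 2640 CPM in WT MI, with 2 of 6 higher, and 1760 to 1930 CPM in KO SH and 2390 to 2630 CPM in KO MI, with 3 of 6 higher. The collagen gene *Col1a1* (0.65) and *Postn* (0.60) were DEGs in KO MI against KO SH. The 5 erythroid markers were also all DEGs there, with sums of 264 to 316 CPM in KO SH and 223 to 723 CPM in KO MI. *Hbb-bs* missed in 7 and *Alas2* in 2 of the 8 fits that left out 1 library. Atrial markers summed to 45.5 to 124 CPM in KO SH and to 159 to 2430 CPM in KO MI, with 2 of 4 DEGs (*Nppa* and *Myl4*). Most of this sum was *Nppa*, so it does not describe the list as a whole. In KO MI the mean was 908 CPM for *Nppa*, 33.3 CPM for *Myl4*, 3.87 CPM for *Myl7* and 1.15 CPM for *Sln*. Without KO MI replicate 7, 4 of 4 atrial markers were DEGs and 4 of 6 fibroblast markers were higher. Of 6 tested skeletal muscle markers, 5 were DEGs in KO MI against KO SH, all higher. Between KO MI and WT MI, 3 of these 6, 1 of 5 erythroid and 1 of 4 atrial markers (*Nppa*) were DEGs, all higher. Without replicate 7 these counts were 2, 4 and 1. Mitochondrial genes held 46.8% to 47.8% of the counts in KO SH and 38.1% to 45.0% in KO MI, and ribosomal protein genes summed to 4620 to 4760 CPM and to 5080 to 5930 CPM. Some markers of other lists fell. In WT MI against WT SH, 3 of 6 cardiomyocyte, 1 of 5 endothelial and 2 of 5 smooth muscle and pericyte markers passed, all lower. In KO MI against KO SH, cardiomyocyte markers had 2 higher and 1 lower, endothelial markers 2 lower, and smooth muscle and pericyte markers 2 higher and 2 lower. The skeletal muscle marker *Tnnc2* was at 0 in KO SH, and no marker of the other lists named here was at 0 in a group. The part of these lists in the change of the proliferation genes was not tested.

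**Figure D5:**
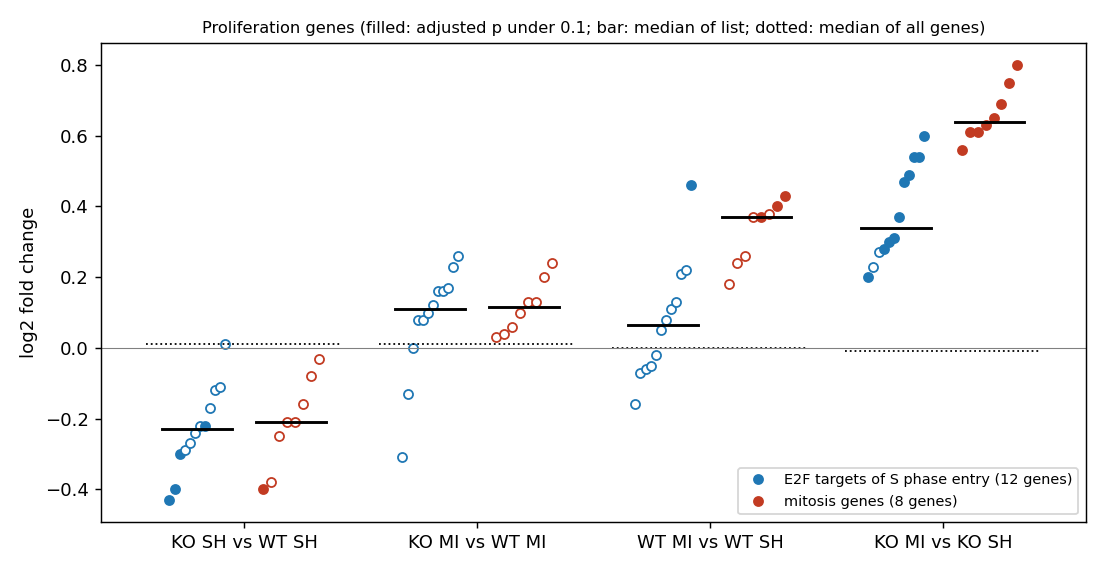
Log2 fold changes of the 12 E2F target genes of S phase entry (blue) and the 8 mitosis genes (red) in 4 comparisons; filled points have an adjusted p under 0.1, solid bars are list medians and dotted lines the median of all genes tested. In KO MI against KO SH the medians are 0.34 and 0.64, and in KO SH against WT SH −0.23 and −0.21.

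The remaining lists cover p53 targets, ubiquitin ligases and imprinted neighbours. Of all genes tested, 12.3% passed in KO SH against WT SH and 3.07% in KO MI against WT MI. In KO MI against KO SH 17.5% passed, and 28% without KO MI replicate 7. The shares of DEGs in these 3 comparisons were 5.01%, 1.73% and 7.42%. Of 14 p53 target genes other than *Cdkn1a*, 3 passed in KO SH against WT SH, 2 higher (*Sesn2* and *Trp53inp1*) and 1 lower (*Perp*; median of the list 0.00). *Perp*, a membrane protein gene of the p53 response, was a DEG, with 65.3, 116, 165 and 102 CPM in WT SH and 58.6, 55.6, 59.5 and 56.1 CPM in KO SH (log2 fold change −0.96, SE 0.21, adjusted p = 0.0118 by edgeR), and again in KO MI against WT MI (−0.90, adjusted p = 0.0346 by edgeR, and −0.86, adjusted p = 0.0547, without KO MI replicate 7), where the adjusted p was over 0.1 (up to 0.126) without WT MI replicate 1 or 4. *Sesn2*, a stress-response gene, was a DEG in the other direction in KO SH (0.59, SE 0.14, adjusted p = 0.0168 by edgeR). In KO MI against KO SH 4 of the 14 passed, 1 higher (*Zmat3*) and 3 lower (*Eda2r*, *Trp53inp1* and *Btg2*), with 0 DEGs, and without KO MI replicate 7 the counts were 3 higher and 3 lower. *Zmat3* and *Eda2r* each missed in 6 of the 8 fits that left out 1 library, *Btg2* in 4 and *Trp53inp1* in 1. In KO SH against WT SH *Trp53inp1* missed in 4 of 8. Of the 8 ubiquitin ligase genes acting on p27 and D-type cyclins, 1 passed in KO SH (*Ambra1*, 0.17) and 1 in KO MI against KO SH (*Cks1b*, 0.48), and neither was a DEG. Each count is 12.5% of the list, close to or below the share of all genes tested. *Ambra1* missed in 7 and *Cks1b* in 5 of the 8 fits that left out 1 library, while *Cks1b* was a DEG (0.58) without KO MI replicate 7. Of 7 tested imprinted neighbours of *Cdkn1c*, none passed in either KO comparison and 2 did in KO MI against KO SH (*Tssc4* and *H19*), where *H19*, an imprinted noncoding RNA, was a DEG (0.51, SE 0.10, adjusted p = 0.00453 by edgeR). Without KO MI replicate 7 it passed at 0.39 (adjusted p = 0.00309 by edgeR) and was no DEG, and it was also no DEG without KO SH replicate 2.

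The genes most like each member were those with the highest Pearson correlation of log2 CPM over the 16 libraries, among 14118 tested genes with a mean of at least 1 CPM. The libraries share group effects and library quality, so these values are a description. *Ccnd1* was followed by *Arhgef6* (r = 0.93) and *Apln* (0.93), *Ccnd2* by *Rflnb* (0.95), *Cdkn1a* by *Dynll1* (0.96), *Etf1* (0.95) and *Actc1* (0.95), *Cdkn1b* by *Ep300* (0.94) and *Meis1* by *Tnni1* (0.93), the slow skeletal troponin I gene of the immature heart, *Spock2* (0.92) and *Hey2* (0.92). For *Ccnd3*, *Cdk4*, *Cdk6*, *Cdkn1c* and *Rb1* the highest r was between 0.82 and 0.90. Among the 10 genes themselves, *Cdkn1a* and *Cdkn1b* had the most negative r over the 16 libraries (−0.88), then *Ccnd1* and *Meis1* (−0.79). As deviations from the group means the order differed, with *Ccnd2* and *Cdkn1b* at −0.87, *Cdkn1a* and *Cdkn1b* at −0.83, *Ccnd2* and *Meis1* at −0.78 and *Ccnd1* and *Meis1* at −0.54. The spread of *Ccnd2*, *Cdkn1a*, *Cdkn1b* and *Meis1* was widest in KO MI (CV 18.9%, 29.3%, 17% and 13.5%). In KO MI replicate 7, *Ccnd2* and *Cdkn1a* were lowest and *Cdkn1b* and *Meis1* highest of the 16 libraries, so these values may lean on it. Correlations without replicate 7 were not computed. *Cdk4* and *Cdkn1a* had the highest r both ways (0.81).

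The genes lie on 7 chromosomes. *Cdk4* shares chromosome 10 with *Lrrc10* and starts 10.01 Mb away from it. Within 5 Mb of the start of *Rb1*, 11 of 70 tested genes were DEGs in KO SH against WT SH and 9 of 70 in KO MI against WT MI. Over all genes tested the shares were 5.01% and 1.73%. Around the other members, with 46 to 237 tested genes each, the counts ran from 2 to 10 and from 0 to 4, such as 6 and 1 of 52 around *Cdkn1b*. The window around *Lrrc10* held 3 and 2 of 69. The *Rb1* window was named after these counts were seen, and counts of windows of unlike size are not directly comparable. *Rb1* itself was a DEG in neither. Annotated genes overlap *Ccnd1*, *Ccnd2*, *Ccnd3*, *Cdk4*, *Cdk6* and *Cdkn1b* on the opposite strand, and *Cdkn1c*, *Meis1* and *Rb1* on the same strand, where reads of the 2 genes could have been shared by the counting.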

How the data were processed

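The deposited table holds RSEM expected counts per gene from RNA of full ventricles, made by the authors with a stranded total RNA kit and rRNA depletion from read pairs of 150 bp, without normalization, and its values were rounded to whole numbers here. The paper's methods name trimming with Skewer, alignment to GRCm39 with STAR and RSEM, whereas the submitters' processing notes name bcl2fastq 2.17, cutadapt 3.4, HISAT2 2.2.1 and RSEM 1.1.17, so which tools made the table is not settled. Reads that fit several genes are divided by RSEM in proportion, and paralogs and overlapping genes are less certain than the counts alone show. Names, positions and exon lengths came from GENCODE M39, which matched 47772 of 51912 identifiers (those unmatched held 0.57% to 0.786% of the counts of a library).

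Groups came from the labels of the libraries. Genes whose counts summed to 10 or more within every group were fitted with edgeR 4.0.16 in R 4.3.3 (TMM, quasi-likelihood, 1 coefficient per group, all 16 libraries, two-sided F-tests). An adjusted p (Benjamini-Hochberg) under 0.1 was a pass, and a DEG also had a log2 fold change of 0.5 or more in size. DESeq2 1.42.0 was an alternative. CPM use the TMM-scaled library size, correlations a prior count of 2 and permutation tests log2(CPM + 0.05). The fit was tested on simulated data. A gene with 0 counts is below 3 counts, or 0.0577 to 0.0858 CPM, which covers counting error only. Replicate numbers were not treated as pairs, since same-numbered libraries deviated together with r from −0.09 to 0.22. The paper's other assays were not analysed here.

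The 10 genes and all lists were chosen with earlier results of these data known. Named genes are the 10 members, up to 3 DEGs with the largest change per list and comparison, the genes most like a member, *Lrrc10* and *Xist*, and markers of a list that moved with a result. Genes named because a count of 5 or fewer fell outside this rule, such as *Rrm2*, *Tfdp1*, *Ambra1*, *Cks1b*, *Tssc4*, *Zmat3*, *Eda2r*, *Btg2* and *Trp53inp1*, were chosen after their values were seen. Fits of the list genes that left out 1 library were added after seeing the data.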

Additional observations from a re-analysis of the deposited data

Results flagged for a closer look

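For each of the 10 genes the highest and the lowest library of each group of 4 were compared with the other libraries by Dixon's ratio against its 95% critical value, which gave 40 groups. Chance flags about 1 in 20 groups, and 2 were flagged, neither of them for KO MI replicate 7. *Ccnd3* in KO MI replicate 3 was the lowest of its group at 20.7 CPM, with the next library at 21.8 CPM. *Cdk6* in WT MI replicate 4 was the highest of its group at 85.1 CPM, with the next at 79.3 CPM, and leaving this library out kept *Cdk6* below WT MI in KO MI.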

How the results depend on the processing

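Of the 10 genes, *Ccnd1* and *Meis1* in KO SH against WT SH and *Cdk6* in KO MI against WT MI kept an adjusted p under 0.1 and their direction in all alternatives that give one. *Ccnd1* in KO MI against KO SH did so too (adjusted p up to 0.0598 by edgeR), though its exact permutation p was over 0.05. Counts without the minimum fold change were added after seeing the data. In KO SH against WT SH, 1 gene was a DEG with DESeq2, with DESeq2 size factors, with the replicate block and with the *Xist* covariate, and 5 genes passed with only the 2 groups in the fit, with the replicate block (17% of all genes tested) and with the covariate (12.1%). With only the 2 groups, 2 passed in WT MI against WT SH and 1 in KO MI against KO SH. In the interaction 1 passed in DESeq2. No minimum fold change gave 1 gene (KO MI against WT MI), 3 (KO SH against WT SH) and 2 (KO MI against KO SH).

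Under the replicate block, which gives KO MI replicate 7 a term of its own and so drops it, the block gave 2 passing genes in KO MI against WT MI, 2 in WT MI against WT SH, 4 in KO MI against KO SH (1 DEG) and 5 in the interaction (1 DEG), while the shares of all genes tested that passed were 5.5%, 8.21%, 25.2% and 7.36%. Without KO MI replicates 2 and 7, 2 genes passed in KO MI against WT MI and 3 in the interaction, beside 2.85% and 4.11% of all genes tested.

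Leaving out 1 library gave 0 to 1 DEGs in KO SH against WT SH (1 without KO SH replicate 2 or 3), KO MI against KO SH and the interaction (1 without KO MI replicate 7), and 1 to 2, 1 to 4 and 0 to 5 passing genes in KO MI against WT MI, KO MI against KO SH and the interaction. Without each of the other 7 libraries of KO MI against KO SH, 1 gene passed (*Ccnd1*).

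Of 1030 gene values under alternatives, 38 changed sign. None of them was for a gene with an adjusted p under 0.1 in that comparison in the edgeR fit of all 16 libraries. *Ccnd2* in KO SH against WT SH was 0.00 (DESeq2, its size factors), −0.09 (*Xist* covariate) and −0.01 to 0.01 without 1 library, and in KO MI against KO SH 0.10 (replicate block), 0.04 (without KO MI replicates 2 and 7) and −0.11 to 0.10 without 1 library. *Cdk4* in KO MI against WT MI was 0.00 (no filter, permutation) and −0.03 to 0.05. *Cdkn1b* in WT MI against WT SH was 0.00 (no filter, 10 counts in every library), 0.01 (2 groups only), 0.10 (covariate) and −0.03 to 0.02. *Rb1* was 0.02 in KO MI against KO SH (block, without KO MI replicates 2 and 7) and −0.03 in KO SH against WT SH (covariate). *Cdkn1a* in WT MI against WT SH was −0.14 (covariate) and −0.04 to 0.09. Without 1 library, *Cdkn1a* (−0.11 to 0.23) and *Cdkn1b* (−0.13 to 0.06) in KO MI against WT MI, *Cdkn1c* in KO SH against WT SH (−0.12 to 0.11) and in the interaction (−0.08 to 0.15) and *Cdk6* in WT MI against WT SH (0.00 to 0.05) also changed sign. The cause was not tested.

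With 4 libraries a group the exact permutation test cannot go below 0.0286, and a p that misses the threshold does not show that values did not differ.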
